A study of Mus musculus with 12 samples.

Results

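The 9 inherited dystonia genes Tor1a, Thap1, Gnal, Ano3, Sgce, Gch1, Prkra, Hpca and Prrt2 were followed in the cerebellum of Ciz1 knockout (KO) and control (WT) mice. They are genes of inherited dystonia other than Ciz1. Each was read from the brightest array row that the platform annotation pairs with its symbol alone, and each of the 9 had 1 such row, out of 22180 genes in all. The groups, with 3 mice and 1 array each, were KO males, KO females, WT males and WT females, all from adult cerebellum. Mice were 10 months old per the extraction protocol, which calls the controls Ciz1+/+, and 6 to 10 months old per the series design. The source names call the controls wild type, while their genotype field reads Ciz1+/-. No source used here gives the strain or the way the Ciz1 allele was made.

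Dystonia is a disorder of sustained or intermittent muscle contractions that give twisting movements and abnormal postures. Its inherited forms involve proteins of several kinds: a chaperone-like ATPase of the nuclear envelope, transcription factors, a G protein of dopamine signalling, an enzyme of dopamine synthesis, membrane proteins, and calcium and vesicle release proteins. Circuits of the basal ganglia and of the cerebellum have both been tied to it. CIZ1, a nuclear zinc finger protein with roles in DNA replication and in holding Xist RNA on the inactive X chromosome, has itself been proposed as a gene of adult-onset cervical dystonia.

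Values are the log2 of the deposited array intensities, and a difference of 1 stands for a factor of 2. The Ciz1 row lay at 6.82 to 7.31 in KO mice and at 8.70 to 8.90 in WT mice, so it was lower on every KO array than on every WT array. Its KO values stayed above the background level given below. This row cannot show which of the controls' labels holds. All 10 tested cerebellum markers stood above background in every group. Background was set at 6.47, the 95th percentile of 1390 olfactory and vomeronasal receptor rows, which are not expected to be expressed here. Of 7 forebrain and striatum markers, 2 or 3 did so. The 3 KO female arrays stood apart on the first principal component, at 10.72 to 16.01 against -12.18 to 3.54 in the other 9. All 12 tested oligodendrocyte markers had KO minus WT differences below 0, with a median of -0.28, and 1 of them, Opalin, passed the threshold at -0.45, a call lost when any 1 of 9 arrays was left out. Their summed intensity was 6082 to 7909 in KO males and 5905 to 6395 in KO females, against 7176 to 8307 in WT males and 7632 to 8340 in WT females. All of them stood above background in each group. The summed intensity of 10 choroid plexus markers varied more within groups, at 1604 to 8980 in KO males and 1043 to 10658 in KO females, against 3356 to 12914 in WT males and 1407 to 12519 in WT females. The part of these differences in the results below was not tested. Alternatives that hold the mean of either marker list as a covariate are given below. The median difference of the oligodendrocyte markers was -0.17 in males and -0.37 in females. At an unadjusted limma p under 0.05, 0 of the 12 passed in males, against 5.42% of all genes, and 10 in females, against 8.49%. Their mean goes along with genotype on these arrays, so a fit that holds it as a covariate cannot tell it apart from genotype. With that covariate the SE of Thap1 over both sexes rose from 0.07 to 0.12. In tissue RNA of this kind, fewer cells of a type and less RNA per cell cannot be told apart.

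None of the 9 dystonia genes differed between KO and WT mice past the threshold, an adjusted p of 0.05 from limma with Benjamini-Hochberg adjustment over 22180 genes. In the comparison over both sexes, 0.0225% of all genes passed. The differences of the 9 genes ran from -0.07 for Prkra to 0.10 for Prrt2, with 5 above 0 and 4 below it. Their median was 0.00, against -0.00 over all genes, and the median size of their differences was 0.05, against 0.05 over all genes. At an unadjusted p under 0.05, 1 of 9 passed, Prrt2, against 9.26% of all genes. In an exact permutation test of the genotype labels within each sex, which can go no lower than 0.005, Prrt2 had a two-sided p of 0.01 and the other 8 genes had p-values of 0.165 to 0.945. These permutation p-values are not adjusted for the 9 genes. The test was run for them and Ciz1 only, so the share of all genes with such a p is not known. For none of the 9 did the 6 KO arrays and the 6 WT arrays separate, against 0.55% of all genes.

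The 95% intervals show the size of difference in signal that these arrays left possible. Over both sexes the lowest bound of the 9 genes, that of Sgce, was a change of -12.8% relative to WT, and the highest, that of Tor1a, was 15.8%. Within one sex the intervals were wider, and reached -26.6% in males and 30.0% in females, both for Gch1. Gch1 stood below the background level on all 12 arrays, so its interval describes the array signal and does not bound a change of its RNA. The smallest difference that passed the threshold among all genes was 0.37 in size, and the largest of a dystonia gene was 0.10. Intervals were narrowest where mice of a group were most alike. The SD within groups, pooled over the 4 groups, was 0.055 for Prrt2 and 0.058 for Ano3, and 0.144 for Hpca. Of the 1000 genes nearest in brightness, 82.1% had a smaller spread than Hpca, 85.4% than Sgce, 78.7% than Tor1a and 78.6% than Thap1. For Ano3 and Prkra that share was 13.8% and 14.8%.

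**Figure D1:**
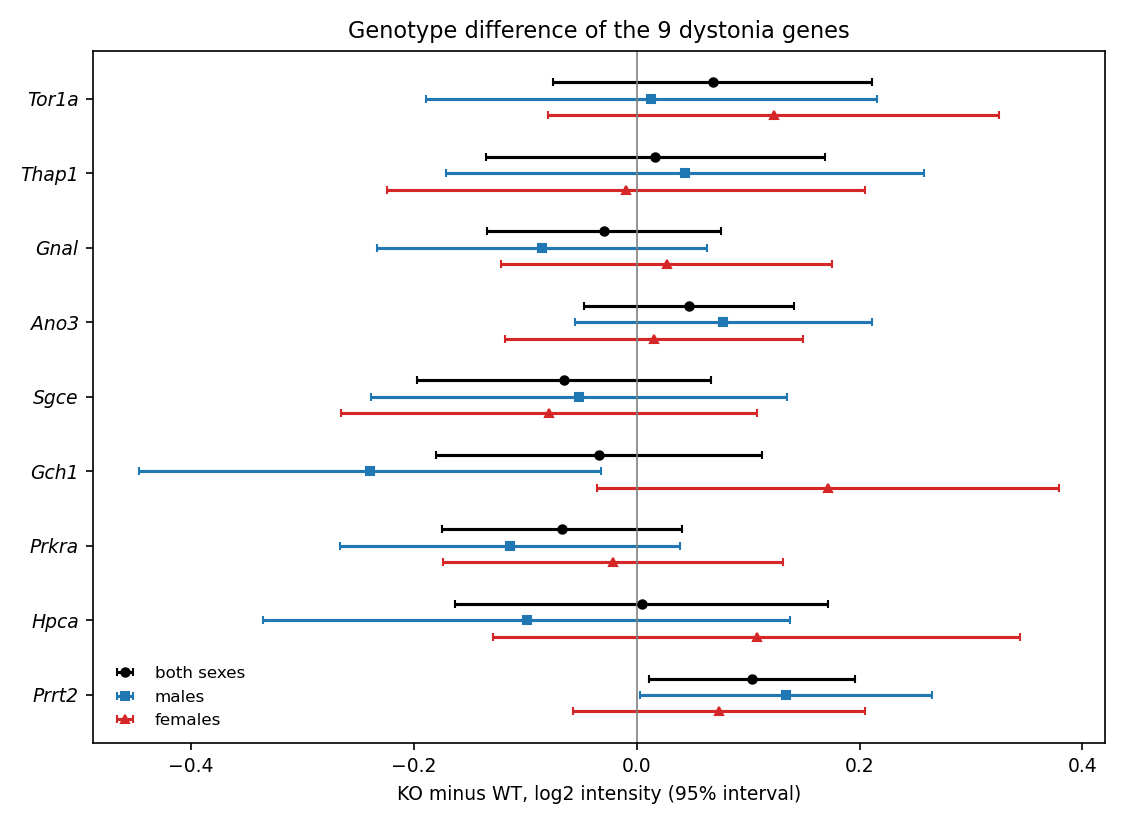
Difference between KO and WT mice in log2 intensity for each dystonia gene over both sexes, in males and in females, with 95% intervals from limma (n = 6 mice per genotype over both sexes, n = 3 within a sex). Over both sexes the estimates lie between -0.07 and 0.10, and the interval of Prrt2, 0.01 to 0.20, is the one that does not reach 0.

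Prrt2 encodes a presynaptic membrane protein that restrains vesicle release, is abundant in cerebellar granule cells and is the main gene of paroxysmal kinesigenic dyskinesia. Its values were 12.35, 12.32 and 12.40 in KO males, against 12.18, 12.32 and 12.17 in WT males. They were 12.39, 12.39 and 12.42 in KO females, against 12.36, 12.36 and 12.27 in WT females. All KO females stood above all WT females, while 14.9% of all genes separated in females in either direction. In males 1 WT mouse reached the level of the lowest KO mouse. Over both sexes Prrt2 averaged 12.38 ± 0.04 in KO mice and 12.28 ± 0.09 in WT mice (SD, n = 6 each). The difference was 0.10 (SE 0.04), a factor of 1.07 with a 95% interval of 0.757% to 14.6% above WT, and it did not pass adjustment (limma, adjusted p = 0.513). Males alone gave 0.13 (limma adjusted p = 0.909). Females alone gave 0.07 (limma adjusted p = 0.775), and the 2 values were not shown to differ (interaction -0.06, SE 0.08). With the oligodendrocyte markers as a covariate, the difference over both sexes was 0.14 (SE 0.07, limma adjusted p = 0.755).

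A second row names Prrt2 together with its neighbour Pagr1a, a subunit of histone methyltransferase complexes, and so was not used to choose members. It averaged 10.21 ± 0.13 in KO males and 10.05 ± 0.08 in WT males, and 10.30 ± 0.05 in KO females and 10.15 ± 0.04 in WT females (SD, n = 3 each). Its difference over both sexes was 0.16 (SE 0.05, limma adjusted p = 0.519 over 41345 rows). The row of Pagr1a alone differed by -0.03 (SE 0.05), and Maz, a zinc finger factor gene on the other side of Prrt2, by 0.06 (SE 0.04).

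The presynaptic genes that work beside Prrt2 gave no call either. Of 13 tested, 8 were above 0 and 5 below it, with a median of 0.02. Unc13a, which encodes the vesicle priming protein Munc13-1, averaged 10.04 ± 0.06 in KO mice and 9.84 ± 0.04 in WT mice (SD, n = 6 each). Its 6 KO arrays all stood above its 6 WT arrays, while 0.55% of all genes separated in either direction. The difference was 0.19 (SE 0.04, limma adjusted p = 0.229). It passed in 1 of 22 alternatives, where the variance prior was allowed to follow brightness (limma adjusted p = 0.0341). That setting raised the number of all genes past the threshold from 5 to 18. Over the 22 alternatives limma's adjusted p of Unc13a ran up to 0.641. Stx1a, which encodes the fusion protein syntaxin 1A, came next by p. It stood below background, and its difference had the other sign, at -0.18 (SE 0.06, limma adjusted p = 0.438). The vesicle fusion genes Snap25 and Vamp2 differed by 0.02 and 0.07, and the calcium sensor Syt1 by -0.03. The sodium channel genes Scn2a and Scn8a, whose channels PRRT2 restrains, differed by 0.01 and 0.02. Pnkd, another gene of paroxysmal dyskinesia, differed by -0.00.

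**Figure D2:**
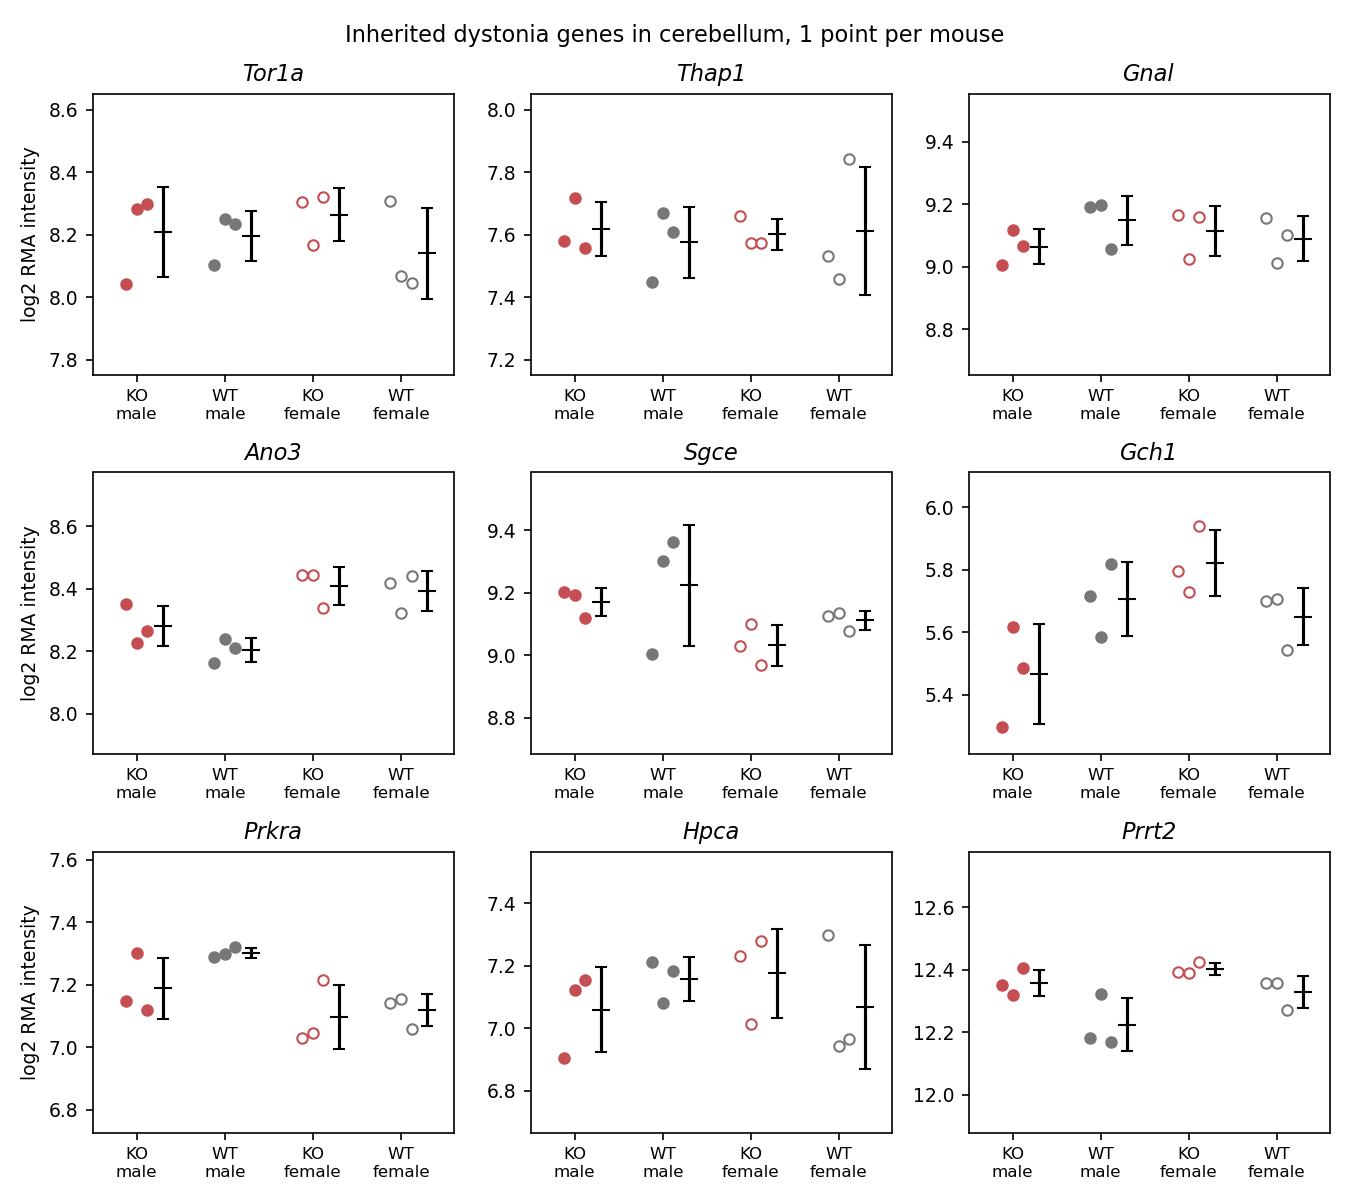
Log2 intensity of each dystonia gene on each of the 12 arrays, with KO males, WT males, KO females and WT females in separate columns and the group mean ± SD beside the points (n = 3 each). Panels start at different levels, and levels of different genes cannot be set against each other because they come from different probes. All 3 KO females stand above all 3 WT females for Gch1 and Prrt2, while 14.9% of all genes separate in females in either direction. Gch1 stood below background on all 12 arrays.

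Tor1a and Thap1 are paired in the biology of dystonia, since THAP1 is a zinc finger transcription factor that binds the TOR1A promoter in human cells. TorsinA, the product of Tor1a, is an AAA+ ATPase of the nuclear envelope and endoplasmic reticulum, and a deletion of a glutamate codon in it causes early-onset dystonia. The RefSeq promoter table of assembly GRCm38.p6 gives 250 bases before and 50 after a gene start, and holds 8 promoters of Tor1a, Ano3, Gch1, Prkra and Hpca. Thap1, Gnal, Sgce and Prrt2 have no entry there. Each was searched on both strands for the THAP1 core TNNGGGCA, which occurs in 13.91% of 32851 promoters in the table. It was found in 2 of the 8, those of Tor1a and of 1 Hpca start. Both are shown on the minus strand, 5′ to 3′, with the core in capitals. In each the core lies on the opposite strand, so that its reverse complement is read. It begins at base -97 from the gene start in Tor1a and at base -11 in Hpca. The 2 promoters are chr2:30967869-30968168 for Tor1a and chr4:129120123-129120422 for Hpca.
Tor1a: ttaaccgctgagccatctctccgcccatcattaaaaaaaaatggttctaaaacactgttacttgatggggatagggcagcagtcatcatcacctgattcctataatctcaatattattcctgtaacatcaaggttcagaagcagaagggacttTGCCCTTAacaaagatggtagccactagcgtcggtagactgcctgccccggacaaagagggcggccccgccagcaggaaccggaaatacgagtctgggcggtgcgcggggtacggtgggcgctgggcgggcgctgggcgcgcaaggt
Hpca: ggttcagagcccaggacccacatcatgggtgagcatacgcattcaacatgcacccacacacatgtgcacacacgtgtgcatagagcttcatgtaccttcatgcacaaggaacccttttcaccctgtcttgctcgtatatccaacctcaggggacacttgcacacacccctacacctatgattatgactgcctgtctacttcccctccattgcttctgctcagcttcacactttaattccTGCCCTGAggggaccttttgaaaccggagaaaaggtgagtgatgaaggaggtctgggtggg
A match of these letters is a description of the sequence and not a binding site. The cAMP response element TGACGTCA, found in 1.79% of the promoters, and the core AANATGGC of YY1, found in 6.05%, were in none of the 8.

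Tor1a read 8.04, 8.28 and 8.30 in KO males, against 8.10, 8.25 and 8.23 in WT males. It read 8.30, 8.17 and 8.32 in KO females, against 8.31, 8.07 and 8.04 in WT females. The groups overlapped in both sexes: the lowest male value was a KO mouse's and the lowest female value a WT mouse's. Over both sexes the difference was 0.07 (SE 0.07, limma adjusted p = 0.778). Tor1a lies on chromosome 2, as Ciz1 does, with 24 protein-coding genes between them in the RefSeq gene order. Its neighbour Tor1b, the closest relative of Tor1a, differed by 0.01 (SE 0.05), BC005624 on its other side by -0.03 (SE 0.06), and Tor2a, with 17 genes between it and Ciz1, by 0.02 (SE 0.05).

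Among 10 tested torsins, torsin activators and nuclear envelope partners, 5 were above 0 and 5 below it, none passed, and the median was 0.00. Tor1aip1 and Tor1aip2, which encode the activators LAP1 and LULL1 that torsinA needs to hydrolyse ATP, differed by -0.08 (SE 0.05) and -0.04 (SE 0.05). The linker genes Sun1, Sun2 and Syne1 differed by -0.03, -0.00 and 0.01.

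Thap1 read 7.58, 7.72 and 7.56 in KO males, against 7.45, 7.67 and 7.61 in WT males. It read 7.66, 7.57 and 7.57 in KO females, against 7.53, 7.46 and 7.84 in WT females. The highest and the lowest of the 12 values were both WT mice. The difference was 0.02 (SE 0.07, limma adjusted p = 0.967). Of 9 other THAP family genes and cofactors, 3 were above 0 and 6 below it, with a median of -0.02 and no call. Thap7, a chromatin-associated repressor, averaged 8.26 ± 0.13 in KO mice and 8.07 ± 0.06 in WT mice (SD, n = 6 each), a difference of 0.19 (SE 0.05, limma adjusted p = 0.301). Yy1, a zinc finger factor that shares targets with THAP1, differed by -0.07, and Hcfc1 and Ogt, the host cell factor that binds THAP proteins and its glycosyltransferase, by 0.04 and -0.04.

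Gch1 encodes GTP cyclohydrolase, the rate-limiting enzyme of tetrahydrobiopterin synthesis and the gene of dopa-responsive dystonia. Its signal was below background, as given above, whereas the other 8 dystonia genes stood above background on all 12 arrays. The values of Gch1 were 5.30, 5.62 and 5.49 in KO males, against 5.71, 5.58 and 5.82 in WT males. They were 5.80, 5.73 and 5.94 in KO females, against 5.70, 5.71 and 5.54 in WT females. KO females all stood above WT females, as 14.9% of all genes separated in females in either direction. In males 1 KO mouse stood above the lowest WT mouse. The difference was -0.24 in males (SE 0.09, unadjusted p = 0.0273, limma adjusted p = 0.874) and 0.17 in females (SE 0.09, unadjusted p = 0.0963, limma adjusted p = 0.656). The interaction was 0.41 (SE 0.13), the largest among the 9 genes, with an unadjusted p of 0.0102 and an adjusted p of 0.990 in limma. Over both sexes the opposite signs left -0.03 (SE 0.07, limma adjusted p = 0.917).

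The other genes of tetrahydrobiopterin and monoamine synthesis gave no call in 11 tested, with 4 above 0, 7 below it and a median of -0.05. Ddc, Tph2 and Slc18a2, 3 of the 11, had an unadjusted limma p under 0.05, against 9.26% of all genes. Pts, Spr and Qdpr, which make and recycle tetrahydrobiopterin, differed by -0.05, -0.01 and -0.06. Gchfr, the feedback regulator of the Gch1 enzyme, differed by 0.02. Th, the rate-limiting enzyme of dopamine synthesis, differed by -0.14 (SE 0.12, limma adjusted p = 0.732), and Ddc, which makes dopamine from L-dopa, by -0.16 (SE 0.07, limma adjusted p = 0.521). Tph2 and the vesicular transporter gene Slc18a2 differed by -0.16 and -0.17, and both stood below background. The KO mean of Ddc, 6.46, lay just below it as well.

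Gnal encodes Golf, the G protein alpha subunit that couples dopamine D1 receptors to adenylyl cyclase in the striatum. Gnal read 9.01, 9.12 and 9.07 in KO males, against 9.19, 9.20 and 9.06 in WT males. It read 9.16, 9.02 and 9.16 in KO females, against 9.15, 9.01 and 9.10 in WT females. The groups overlapped in both sexes. The difference was -0.03 (SE 0.05, limma adjusted p = 0.894), and a row shared with Mppe1 gave 0.03 (SE 0.08). Of 9 tested partners in the pathway, 4 were above 0 and 5 below it, with a median of -0.01 and no call. At an unadjusted p under 0.05, 4 of the 9 passed, against 9.26% of all genes, in both directions: Gng7, a gamma subunit that pairs with Golf, at 0.13 and the phosphodiesterase gene Pde10a at 0.17, and Drd1 and Rgs9 at -0.21 and -0.17. Drd1, the D1 receptor, stood below background. Adcy5, the adenylyl cyclase that Golf drives in the striatum, differed by -0.04 and Ric8b, the chaperone of Golf, by 0.01.

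Hpca encodes hippocalcin, a neuronal calcium sensor. Hpca read 6.90, 7.12 and 7.15 in KO males, against 7.21, 7.08 and 7.18 in WT males. It read 7.23, 7.01 and 7.28 in KO females, against 7.30, 6.94 and 6.96 in WT females. The groups overlapped in both sexes. The difference was -0.10 in males (SE 0.11) and 0.11 in females (SE 0.11), and 0.00 over both (SE 0.08, limma adjusted p = 0.992). None of 9 other neuronal calcium sensor genes passed, with 5 above 0 and 4 below it. Hpcal1, a close relative found in Purkinje cells, differed by 0.10 (SE 0.05, limma adjusted p = 0.617) and Ncs1 by -0.08. Guca1a, a guanylyl cyclase activator gene, stood below background and differed by 0.11 (SE 0.08, limma adjusted p = 0.670).

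Ano3 encodes anoctamin 3, a membrane protein of the TMEM16 family. Ano3 read 8.35, 8.23 and 8.27 in KO males, against 8.16, 8.24 and 8.21 in WT males. It read 8.44, 8.44 and 8.34 in KO females, against 8.42, 8.32 and 8.44 in WT females. The genotypes overlapped in both sexes, while the female values stood above nearly all male values. The genotype difference was 0.05 (SE 0.04, limma adjusted p = 0.768). Of 8 other anoctamin genes 4 stood above background, and none passed, with a median of -0.01. Ano4 averaged 7.31 ± 0.18 in KO mice and 7.52 ± 0.16 in WT mice (SD, n = 6 each), a difference of -0.22 (SE 0.08, limma adjusted p = 0.495) that became 0.05 with the oligodendrocyte markers as a covariate. Ano10, a gene of recessive cerebellar ataxia, differed by -0.07 (SE 0.06).

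Sgce encodes epsilon-sarcoglycan, is expressed from the paternal allele and is the gene of myoclonus-dystonia. Sgce read 9.20, 9.19 and 9.12 in KO males, against 9.003, 9.30 and 9.36 in WT males. It read 9.03, 9.10 and 8.97 in KO females, against 9.12, 9.13 and 9.08 in WT females. WT males spanned the widest range, with the KO males inside it, and in females 1 KO mouse stood above the lowest WT mouse. The difference was -0.07 (SE 0.06, limma adjusted p = 0.768). Peg10, the paternally expressed gene beside it, differed by -0.06 (SE 0.07) and Casd1 on its other side by -0.05 (SE 0.04). All 7 tested genes around Sgce had differences below 0 over both sexes, between -0.26 for Pon3 (SE 0.21) and -0.0048 for Calcr. None passed the threshold or an unadjusted limma p of 0.05, and 49.6% of all genes had differences above 0. The 7 were not of one sign within a sex: 2 stood above 0 in males and 1 in females. In their means over the 12 arrays 5 of the 7 stood above background, and Calcr and Tfpi2 stood below it. Among 11 sarcoglycan and dystrophin complex genes, 5 were above 0 and 6 below it, with a median of -0.00 and no call. Sgcb, the beta-sarcoglycan that pairs with other sarcoglycans in the membrane, averaged 8.93 ± 0.07 in KO mice and 9.11 ± 0.12 in WT mice (SD, n = 6 each), a difference of -0.17 (SE 0.06, limma adjusted p = 0.438). Sgcd, the delta-sarcoglycan, differed by 0.09 (SE 0.05, limma adjusted p = 0.576) and stood just below background in its mean over the 12 arrays.

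Prkra encodes PACT, a double-stranded RNA binding protein that activates the kinase PKR under stress. Prkra read 7.15, 7.30 and 7.12 in KO males, against 7.29, 7.30 and 7.32 in WT males. It read 7.03, 7.04 and 7.22 in KO females, against 7.14, 7.15 and 7.06 in WT females. In males 2 KO mice stood below all WT mice and 1 stood among them, and in females the genotypes overlapped. The difference was -0.07 (SE 0.05, limma adjusted p = 0.704). Of 14 tested genes of PKR and the integrated stress response, 8 were above 0 and 6 below it, with a median of 0.01 and no call. Ddit3, the stress-induced factor CHOP, averaged 8.44 ± 0.15 in KO mice and 8.20 ± 0.09 in WT mice (SD, n = 6 each), a difference of 0.24 (SE 0.05, limma adjusted p = 0.248). Atf4, the factor upstream of it, differed by 0.13 (SE 0.06, limma adjusted p = 0.571), and Trib3, a target of both, by -0.12. Eif2ak2, the gene of PKR, differed by 0.01 and stood below background.

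**Figure D3:**
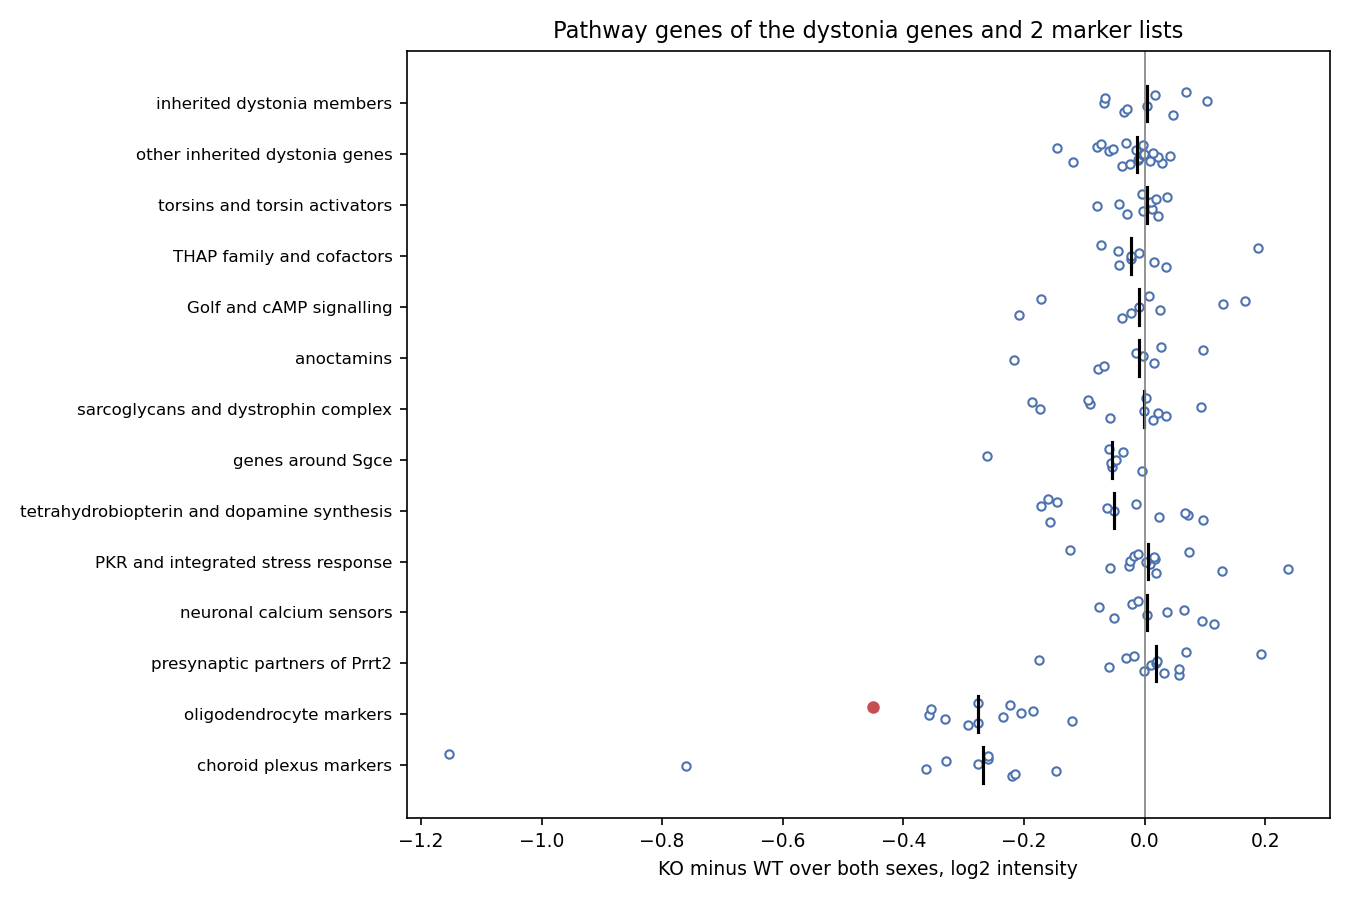
Difference between KO and WT mice in log2 intensity for each gene in the lists around the dystonia genes and in the oligodendrocyte and choroid plexus markers, 1 point per gene, with each list's median as a bar and the dystonia genes in the top row. Medians lie near 0 for the lists around the dystonia genes, at -0.28 for the oligodendrocyte markers and at -0.27 for the choroid plexus markers. The filled point is Opalin, the 1 gene in the plot that passed the threshold.

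Other inherited dystonia genes were tested in the same way. Of 20 tested, 5 were above 0 and 15 below it, with a median of -0.01 and no call. Drd5, a D1-class dopamine receptor gene, differed by -0.12 (SE 0.05, limma adjusted p = 0.534) and was the 1 gene of the 20 with an unadjusted p under 0.05, against 9.26% of all genes. Vps16 and Vps41, which encode lysosomal tethering proteins, differed by -0.07 and -0.03. Kmt2b, a histone methyltransferase gene, differed by 0.04, Tubb4a, a tubulin gene, by -0.00, and Slc2a1, the glucose transporter gene, by 0.01.

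Within one sex the counts stayed at 0 of 9 past the adjusted threshold, in males and in females alike, with 0.0225% of all genes past it in either. At an unadjusted p under 0.05, 2 of 9 passed in males, Gch1 and Prrt2, against 5.42% of all genes, and 0 of 9 in females, against 8.49%. KO and WT mice did not overlap for 0 of 9 genes in males, against 10.3% of all genes, and for 2 of 9 in females, Gch1 and Prrt2, against 14.9%. For the interaction, 0 of 9 passed the adjusted threshold, as did 0% of all genes, and 1 of 9, Gch1, had an unadjusted p under 0.05, against 4.82% of all genes. The comparison within males takes no value from the KO females that stood apart, and without those 3 arrays in the fit it again gave 0 of 9.

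Between the sexes 0 of 9 dystonia genes passed the adjusted threshold, against 0.0361% of all genes. At an unadjusted p under 0.05, 3 of 9 passed, Ano3, Prkra and Gch1, against 7.93% of all genes. Ano3 averaged 8.40 ± 0.06 in females and 8.24 ± 0.06 in males (SD, n = 6 each), a difference of 0.16 (SE 0.04, limma adjusted p = 0.503). Prkra averaged 7.11 ± 0.07 in females and 7.25 ± 0.09 in males (SD, n = 6 each), a difference of -0.14 (SE 0.05, limma adjusted p = 0.600). Gch1 averaged 5.74 ± 0.13 in females and 5.59 ± 0.18 in males (SD, n = 6 each), a difference of 0.15 (SE 0.07, limma adjusted p = 0.623). For none of the 9 did all females stand apart from all males, against 0.469% of all genes. For Ano3 the overlap came from 1 KO male at 8.35, which stood above 1 KO female and 1 WT female.

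The dystonia genes were then set against each other over the 12 arrays, with the group means removed so that genotype and sex play no part. Of 36 pairs, 22 had a positive Pearson r, and r ran from -0.80 to 0.82. In an exact permutation test within groups, 4 pairs had an unadjusted p under 0.05 and none passed adjustment over the 36, with a smallest adjusted p of 0.389. The share of all gene pairs with such a p was not computed. All of the 4 but Tor1a and Hpca include Gch1, which stood below background on all 12 arrays. The r values of Gch1 therefore describe its array signal and not clearly its RNA. Tor1a and Hpca had the highest r at 0.82 (Spearman's rho 0.89, permutation p = 0.0324 for r and 0.0255 for rho, adjusted p = 0.389 and 0.380). Without the 2 arrays farthest from the median of Tor1a, r was 0.73. Ano3 and Gch1 had the lowest r at -0.80 (rho -0.85, permutation p = 0.0162 for r and 0.0046 for rho, adjusted p = 0.389 and 0.167), and -0.80 again without the 2 farthest arrays. Gch1 and Prkra had an r of 0.73 (rho 0.67, permutation p = 0.0309 for r and 0.0455 for rho, adjusted p = 0.389 and 0.398), and 0.84 without the 2 farthest. Gch1 and Hpca had an r of 0.65 (rho 0.59, permutation p = 0.0448 for r and 0.0856 for rho, adjusted p = 0.400 and 0.440), and 0.52 without them. Tor1a and Thap1 had an r of 0.05 (rho 0.02, permutation p = 0.929 for r and 0.949 for rho, adjusted p = 0.948 and 0.949).

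**Figure D4:**
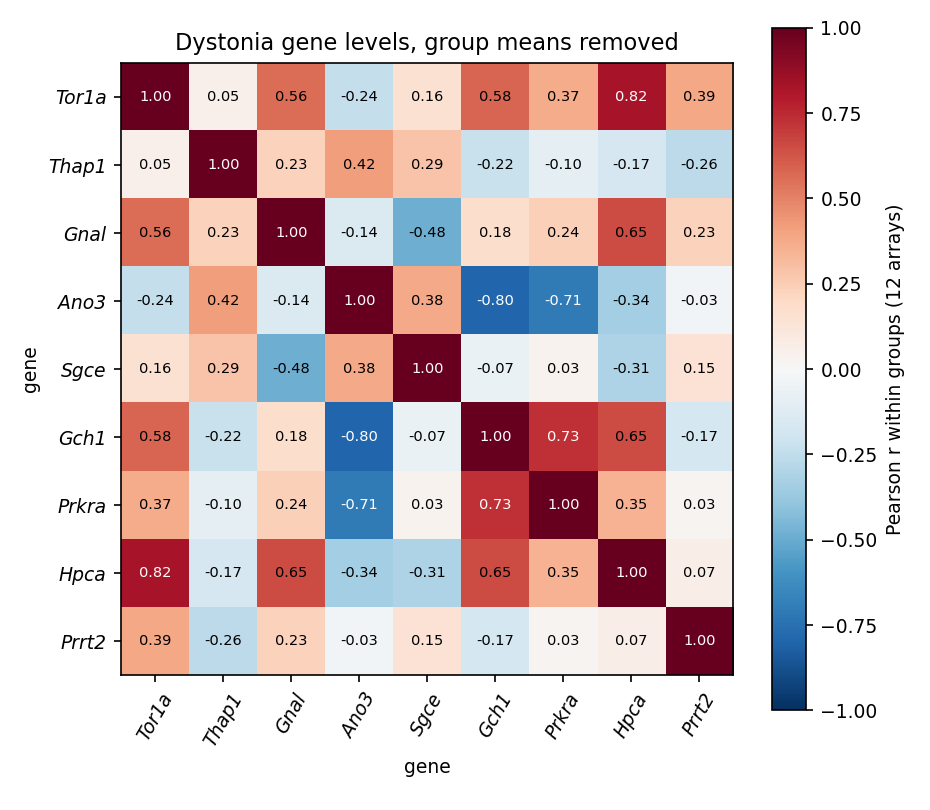
Pearson r between each pair of dystonia genes over 12 arrays after removing the 4 group means, on a colour scale from -1 to 1. Tor1a with Hpca at 0.82 and Ano3 with Gch1 at -0.80 are the extremes, and no pair passed adjustment. Gch1 stood below background on all 12 arrays.

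For each dystonia gene the genes with the most similar pattern were looked up among the 11090 genes at or above the median brightness. Predicted, Riken, olfactory, vomeronasal, small RNA and similar placeholder symbols were left out of the search. The measure was Pearson r over 12 arrays with the group means removed, among 10301 candidate genes, and it is given as a description, since all points share an array and its processing. Tor1a was most like Cybc1, at 0.97, and Glyr1, at 0.94. Thap1 was most like Spred3, at 0.95, Gnal most like Nle1, at 0.94, and Ano3 most like Tial1, at 0.98. Sgce was most like Arih2, at 0.94, Gch1, with its signal below background, most like Enpp5, at 0.96, and Prkra most like Trnp1, at 0.96. Hpca was most like R3hdm4, at 0.96, and Prrt2 most like Slc50a1, at 0.94. The 99th percentile of r over the candidates lay between 0.73, for Thap1, and 0.83, for Hpca.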

How the data were processed

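Per the labels, the authors summarised core exons by RMA in Affymetrix Expression Console, and the deposited value is an intensity on a linear scale. Transcriptome Analysis Console 3.0 is also named in the submitters' processing notes. Log2 of each deposited intensity was taken, with no further normalization, although log2 values had been assumed in the planned design. Array medians of the intensity lay between 96.5 and 98.7, and read depth does not apply: the number of arrays limits the precision. Of 41345 rows, 23521 carry 1 gene symbol. The brightest such row per gene was kept, which gave 22180 genes, with no filter on brightness. Means of the 4 groups were fitted with limma 3.58.1 in R 4.3.3 with eBayes. Tests were two-sided and adjusted over all genes. The code was tested on simulated data. Python 3.11.15 and matplotlib 3.10.9 did the rest. The extraction protocol describes separate animals. Replicate numbers follow record order and pair nothing.

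The members and the gene lists were chosen with earlier results of these data known. The rule for named genes took each member, its neighbours in the gene order where a sentence speaks of them, the 2 genes of each list with the smallest p, list genes past the threshold, and the 2 most alike genes of each member. The text departs from it: 1 or both alike genes are printed, and cell type marker lists are given as counts and sums, with Opalin named. Other list genes were named for their role, after their values were seen. Pair correlations were added after the data were seen. Alternatives changed the row rule, scaling, filter, pseudocount, variance prior, array weights and covariates, or left out each array.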

Additional observations from a re-analysis of the deposited data

How the results depend on the processing

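No dystonia gene passed the threshold under any of the 23 alternatives in the comparisons each could be fitted to, in all 967 refitted differences, of which 899 had the sign first reported. The differences whose sign turned were then 0.023 for Tor1a and 0.017 for Gnal (females minus males) with quantile normalization, and 0.0101 for Thap1 in females with array weights. With the choroid plexus markers as a covariate they were -0.0014 for Thap1 and -0.0345 for Hpca over both sexes, -0.0297 for Tor1a in males and -8e-04 for Ano3 in females. With the oligodendrocyte markers they were -0.0149 for Thap1, 0.0133 for Sgce, -0.0051 for Hpca, 0.0492 for Ano4 and -0.0222 for Atf4 over both sexes, -0.0238 for Gnal and 0.0306 for Sgce in females, 0.0345 for the interaction of Sgce, and 3e-04 for Tor1a and -0.0048 for Thap1 between the sexes. The cause was not tested. Leaving out each array in turn gave, over both sexes, -0.0216 to 0.0749 for Thap1, -0.0713 to 0.0084 for Gch1 and -0.0272 to 0.0618 for Hpca. In males it gave -0.0334 to 0.0959 for Tor1a, -0.02 to 0.0904 for Thap1 and -0.1614 to 0.0185 for Sgce, and in females -0.0868 to 0.1062 for Thap1, -0.0117 to 0.0729 for Gnal, -0.0203 to 0.0508 for Ano3 and -0.0808 to 0.0125 for Prkra. For the interaction it gave -0.1304 to 0.0626 for Thap1, -0.0974 to 0.0824 for Sgce and -0.0625 to 0.1599 for Ciz1. Between the sexes it gave -0.0422 to 0.0241 for Tor1a, -0.0495 to 0.047 for Thap1, -0.0269 to 0.0189 for Gnal and -0.045 to 0.0526 for Hpca. The number of all genes past the threshold, 5 over both sexes, 5 in males, 5 in females, 0 for the interaction and 8 between the sexes, was less stable. With genes above the median brightness alone, which leaves out Gch1, it was 14 over both sexes, 16 in females, 2 for the interaction and 13 between the sexes. With 16 added before the log it was 8 in females and 1 for the interaction. With the variance prior following brightness it was 18, 26 in females, 2 for the interaction and 15 between the sexes. It was 3 over both sexes with the choroid plexus covariate and with additive terms for genotype and sex, and 2 over both sexes, 2 in males and 1 in females with the oligodendrocyte covariate. Without one array it was 3 to 8 over both sexes, 2 to 4 in males, 3 to 7 in females and 0 to 1 for the interaction. The call of Opalin was lost with median centring, with the choroid plexus covariate and with additive terms. It was also lost without any 1 array other than KO male 1, WT female 1 or WT female 3. With 1 array left out, limma's adjusted p of Opalin ran up to 0.158, and over all alternatives up to 0.509. The oligodendrocyte covariate lost the call too, but its marker mean includes Opalin itself, so that fit cannot test it. No paired analysis was possible because the labels give no replicate numbers shared between groups.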
